A study of Mus musculus with 12 samples.

Results

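Kit, Pdgfra and Pdgfrb encode 3 receptor tyrosine kinases of one structural class, and Kitl, Pdgfa and Pdgfc encode ligands for them. They were followed in mouse embryonic stem cells (ESCs) with or without knockdown of Smarcd1, before and after retinoic acid. These 6 genes, out of 19938 genes that the arrays measure with a probe set of a single symbol, were taken by name. The probe set of a gene was to be chosen by its mean log2 value over all 12 arrays, but each of the 6 genes had a single probe set. All 6 were among the 12988 genes tested, those whose value on 2 or more arrays lay above the 40th percentile of that array. The genes were picked with earlier results of these arrays known, so every test given for them describes these arrays and is no independent evidence.

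The class III receptor tyrosine kinases carry immunoglobulin-like repeats outside the cell and a split kinase domain inside it, and a dimeric ligand brings a pair of receptors together. The Kit receptor binds Kit ligand (stem cell factor, Kitl) and is known for its role in germ cells, melanocytes, mast cells and blood progenitors, and it is also made by ESCs. The PDGF receptors bind PDGF dimers: the alpha receptor is a marker of primitive endoderm, its derivatives and many mesenchymal cells, and the beta receptor of pericytes, smooth muscle and fibroblasts. PDGF-A and PDGF-C act through the alpha receptor, and PDGF-C needs a protease to remove its CUB domain before it can bind.

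The arrays carried RNA from R1 cells, a mouse ESC line, infected with a scrambled control or with a knockdown of Smarcd1, which encodes the BAF60a subunit of the SWI/SNF chromatin remodelling complexes. KD1 cells after retinoic acid (RA KD1, 4 arrays) and scrambled cells after retinoic acid (RA scrambled, 2 arrays) were kept for 4 days without leukemia inhibitory factor (LIF) and with 1 µM retinoic acid. KD2, KD1 and scrambled ESCs (ESC KD2, ESC KD1 and ESC scrambled, 2 arrays each) were kept undifferentiated, in medium with LIF. The protocol for ESCs names a layer of mitomycin-treated embryonic fibroblasts under the cells, whose RNA can be in every sample. The protocol speaks of clones, and no sample is labelled as a second KD1 or scrambled line, so other differences between lines cannot be told apart from the knockdown. Arrays of a group are labelled biological replicates with no word on separate cultures, so each p-value reflects array-to-array spread within groups, part of which may be technical.

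The windows upstream of Kit and of Pdgfc are shown because Kit had the largest rise and Pdgfc the largest fall of the 6 genes in RA KD1 against RA scrambled cells. Both sequences are from RefSeq on GRCm38.p6, run 5′ to 3′ on the plus strand and end at the base before the annotated start of a transcript. The Kit window is chr5:75574737-75574986 and the Pdgfc window is chr3:81036166-81036415. Capitals mark the GC box, GGGCGG on either strand.
Kit: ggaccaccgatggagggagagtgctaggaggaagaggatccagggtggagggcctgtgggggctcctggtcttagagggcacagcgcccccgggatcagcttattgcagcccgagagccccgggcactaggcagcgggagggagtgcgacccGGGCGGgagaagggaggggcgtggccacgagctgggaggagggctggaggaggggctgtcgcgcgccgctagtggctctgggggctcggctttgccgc
Pdgfc: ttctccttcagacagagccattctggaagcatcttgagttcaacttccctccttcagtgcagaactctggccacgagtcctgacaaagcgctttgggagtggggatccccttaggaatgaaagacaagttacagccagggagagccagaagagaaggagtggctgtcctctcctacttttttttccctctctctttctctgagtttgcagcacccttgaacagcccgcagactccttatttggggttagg
The Kit window held 1 GC box, at -98 to -93 from the start, and 70.8% of its bases were G or C, against a median of 52.4% over 32851 windows of 250 bases. Pdgfc had 50.8% G or C and no GC box, a motif that 32.7% of all windows held. Windows were at hand for 5 of the 6 genes (not Pdgfrb). The Kitl window had 3 GC boxes, of which a pair overlaps, and a TATAAA at -25 to -20 on the gene strand, which 7.6% of all windows held. The Pdgfra window, chr5:75152001-75152250, lies inside the annotated span of its own gene, and so do the Pdgfa windows. The Kitl window reaches into the span of Kitl, and its TATAAA lies inside that span. None of the members' windows held a GATA motif on either strand, whether spelled AGATAA, in the variant AGATAG, as TGATAA or finally as TGATAG (26.5% of all windows). The same was true of the retinoid receptor motif AGGTCA (14.0%) and of the E box CACGTG (6.0%), on either strand, which says only that these letters are not in these windows.

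Smarcd1 itself read 6.36, 6.61, 6.50 and 6.44 in RA KD1, against 8.84 and 8.64 in RA scrambled cells. In ESCs it read 8.56 and 7.16 in KD2, 7.75 and 7.78 in KD1, and 8.67 and 8.68 in scrambled cells. Smarcd1 fell by 2.26 in RA KD1 (± 0.28, SE, limma adjusted p = 0.000152) and was at -0.91 ± 0.33 in ESC KD1 (SE, limma adjusted p = 0.23). That error is pooled over all groups. With both KD2 arrays left out the limma adjusted p in ESC KD1 was 0.00196, and with a term for the replicate number it was 0.411. At 8.56, the array labelled KD2 replicate 1 lay near the scrambled arrays and goes against its label. The values of the 6 genes in KD2 are therefore given with and without each KD2 array. Over all genes the KD2 arrays correlated at 0.919, against 0.984 to 0.994 for arrays within the other groups. The mean over 10 pluripotency markers, all of them above the filter, was 6.08 to 6.80 in RA KD1 and 6.26 to 6.30 in RA scrambled cells, and 9.51 to 9.86 in KD2, 9.37 to 9.51 in KD1 and 8.62 to 9.24 in scrambled ESCs. That mean covers members that went both ways: in RA KD1 against RA scrambled cells 3 of the 10 were higher, Klf4 (3.14), Tbx3 (0.93) and Pou5f1 (0.85), and Sox2 (-1.75) was lower.

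The first question was how the receptors and ligands differ between KD1 and scrambled cells after retinoic acid. Kit and Pdgfra were far higher in RA KD1 cells, and Pdgfrb, Pdgfc and, by less, Kitl were lower. Of the 6 genes, 5 passed an adjusted p of 0.05 in limma (Benjamini-Hochberg over all genes tested), where 22.7% of all tested genes did. Pdgfa was the exception. In whole-culture RNA, fewer cells of a type and less RNA per cell cannot be told apart.

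**Figure D1:**
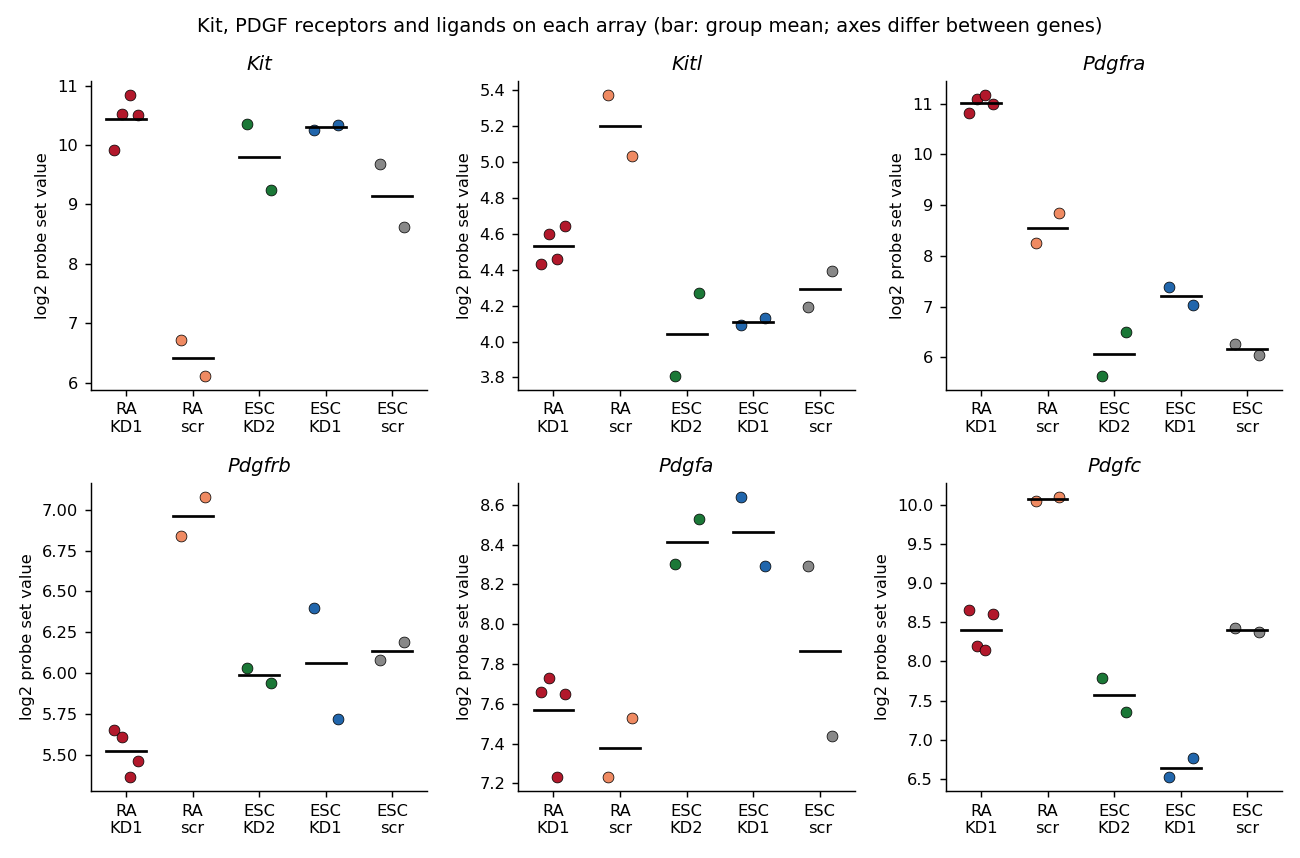
Log2 probe set values of the 6 genes, 1 point per array and 1 panel per gene, with the mean of each group as a bar. Kit in RA scrambled cells (6.72 and 6.12) lies below every other array, and Pdgfra in RA KD1 cells (10.82 to 11.17) above every other array.

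Kit, the receptor for stem cell factor, read 9.91, 10.52, 10.84 and 10.51 on the log2 scale in RA KD1 cells, against 6.72 and 6.12 in RA scrambled cells. The groups did not overlap, and the gap between the lowest KD1 array and the highest scrambled array was far wider than the spread inside either group. The log2 change was 4.02 ± 0.36 (SE, limma adjusted p = 1.32e-05), a 16.3-fold higher level in RA KD1. Over the alternative settings it ran from 3.72 to 4.33. The pluripotency marker Klf4 averaged 8.55 in RA KD1 and 5.41 in RA scrambled cells, and 9.19 in KD1 ESCs, and its part in the Kit result was not tested.

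Pdgfra, the receptor for PDGF-A and PDGF-C, read 10.82, 11.10, 11.17 and 11.00 in RA KD1 cells, against 8.26 and 8.84 in RA scrambled cells. The 4 RA KD1 arrays lay close together and above both RA scrambled arrays. The log2 change was 2.47 ± 0.24 (SE, limma adjusted p = 2.36e-05), or 5.55-fold.

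Pdgfrb, the receptor of pericytes and fibroblasts, ran the other way. It read 5.65, 5.61, 5.36 and 5.46 in RA KD1 cells, against 6.84 and 7.08 in RA scrambled cells, with no overlap. It fell by 1.44 on the log2 scale (± 0.18, SE, limma adjusted p = 0.000176), a 2.71-fold lower level.

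Among the ligands, Pdgfc, a PDGF that binds the alpha receptor once processed, had the clearest difference. It read 8.65, 8.19, 8.14 and 8.61 in RA KD1 cells, against 10.05 and 10.10 in RA scrambled cells. The groups were well apart. Pdgfc fell by 1.68 (± 0.19, SE, limma adjusted p = 7.46e-05), or 3.20-fold.

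Kitl, which encodes Kit ligand, read 4.43, 4.60, 4.46 and 4.64 in RA KD1 cells, against 5.37 and 5.03 in RA scrambled cells. The groups were apart, but the RA KD1 values lay at the filter level itself, which was 4.46 to 4.63 depending on the array. Kitl fell by 0.67 (± 0.16, SE, limma adjusted p = 0.0116). This call rests on a single array: without RA scrambled replicate 1 the change was -0.49 with an adjusted p of 0.172.

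Pdgfa, whose homodimer binds the alpha receptor, read 7.66, 7.73, 7.23 and 7.65 in RA KD1 cells, against 7.23 and 7.53 in RA scrambled cells. The groups overlapped, and the log2 change of 0.19 ± 0.23 (SE, limma adjusted p = 0.649) was smaller than its error. The receptor Pdgfra was thus higher, while its ligand Pdgfa did not pass the test and its ligand Pdgfc was lower. For Kit, the receptor was higher. Its ligand Kitl was lower, but it was clear of the filter level only in RA scrambled cells. The Kitl call also rests on a single array.

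Genes that mark other cell types moved in the same comparison. Of 18 extraembryonic endoderm markers, 17 were tested, and 15 were higher and 0 lower in RA KD1 cells, where 22.7% of all tested genes passed. The median log2 change was 2.43, against -0.02 over all tested genes. Gata4 (4.34), Sox7 (4.35), Srgn (4.34) and Lama1 (4.16) had the largest log2 changes; Gata4 and Sox7 are transcription factors of this lineage, Srgn a proteoglycan of parietal endoderm and Lama1 a laminin chain. The mean of the tested markers was 9.39 to 9.83 in RA KD1, 7.10 to 7.21 in RA scrambled, 5.57 to 5.88 in KD2 ESCs, 6.77 to 6.86 in KD1 ESCs and 5.93 to 5.95 in scrambled ESCs.

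**Figure D2:**
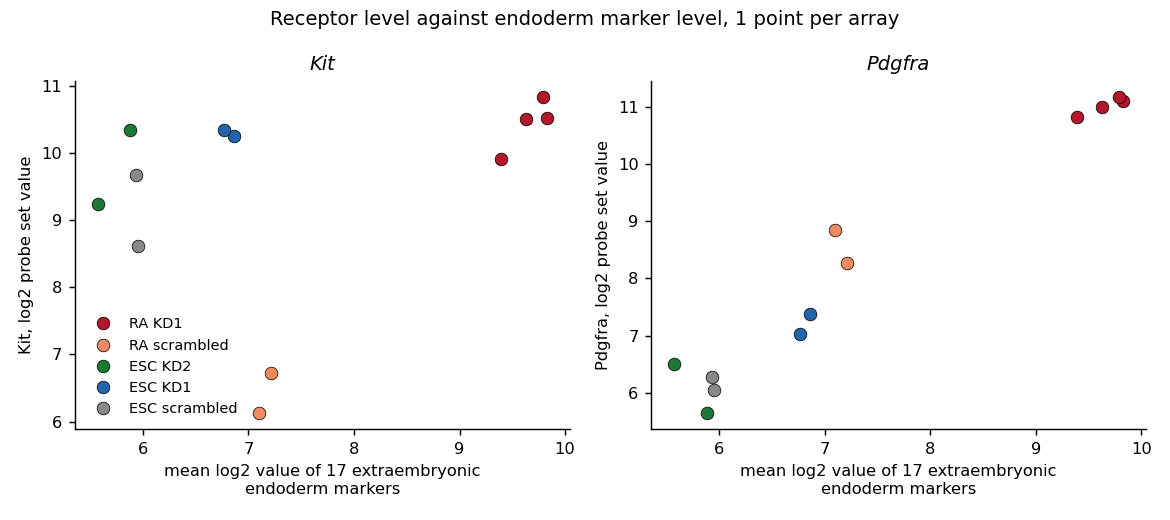
Log2 value of Kit (left) and Pdgfra (right) against the mean log2 value of 17 extraembryonic endoderm markers, 1 point per array. Pdgfra is highest on the RA KD1 arrays, where the marker mean is highest too. Kit is high on RA KD1 arrays (marker mean 9.39 to 9.83). Kit is also above RA scrambled cells on the KD2 (5.57 to 5.88), KD1 (6.77 to 6.86) and scrambled (5.93 to 5.95) ESC arrays.

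Of 12 fibroblast and feeder markers, 10 were tested and 3 were lower in RA KD1 cells, with a median of -0.54. The 3 were the collagens Col1a2 (-1.80) and Col3a1 (-1.71) and the proteoglycan Dcn (-1.58). Over all tested genes 22.7% passed in this comparison, so the count says little about the list. The mean of the 10 tested markers was 6.38 to 6.88 in RA KD1, against 7.15 to 7.48 in RA scrambled cells. Of 7 pericyte and smooth muscle markers, 5 were tested and 0 passed in limma (1 had an unadjusted p under 0.05), with a median of -0.60 and a mean of 7.79 to 8.21 in RA KD1, against 8.42 to 8.70 in RA scrambled cells. The part of these cell type differences in the changes of Pdgfra, Pdgfrb and Pdgfc was not tested.

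Other cells known for Kit were read through their markers too. In RA KD1 against RA scrambled cells, 2 of 8 blood and mast cell markers were tested, of which Gata2 was lower (-1.20). Of 6 germ cell markers, all tested, 0 passed in limma in that comparison, and 3 had an unadjusted p under 0.05. In the melanocyte list 3 of 5 were tested and Mitf was higher (0.94), while Pmel (0.42) and Mlana (-0.26) did not pass. Endothelial markers had 3 of 6 tested, with the angiopoietin receptor Tek higher (0.84), while Pecam1 (-0.56) and Kdr (-0.05) did not pass. In that comparison 22.7% of all tested genes passed.

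The second question was whether the ESC lines already differ before retinoic acid. In KD1 ESCs, 1 of the 6 genes passed, where 2.32% of all tested genes did. That gene was Pdgfc, which read 6.52 and 6.77 in KD1 and 8.43 and 8.37 in scrambled ESCs. It fell by 1.76 (± 0.22, SE, limma adjusted p = 0.00289), or 3.39-fold, and without ESC KD1 replicate 1 the adjusted p was 0.052.

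Neither Pdgfra nor Kit passed between KD1 and scrambled ESCs. Pdgfra read 7.38 and 7.03 in KD1 and 6.27 and 6.05 in scrambled ESCs, and the groups were apart. Its log2 change was 1.04 ± 0.28 (SE, limma adjusted p = 0.0837), and the adjusted p was 0.00598 with array weights, which give the discordant KD2 arrays less influence on the error. Kit read 10.26 and 10.34 in KD1 and 9.68 and 8.62 in scrambled ESCs, a log2 change of 1.15 ± 0.41 (SE, limma adjusted p = 0.23). The SD of Kit over the scrambled arrays was 0.75, so the spread of that group was of the order of the change. Leaving out ESC scrambled replicate 2 gave 0.62 and leaving out ESC scrambled replicate 1 gave 1.68. Array weights brought the limma adjusted p of Kit to 0.0425, while a term for the replicate number gave 0.321.

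The other three genes did not pass between KD1 and scrambled ESCs either. Pdgfrb read 6.40 and 5.72 in KD1 and 6.08 and 6.19 in scrambled ESCs, with overlap. Pdgfa read 8.64 and 8.29 in KD1 and 8.29 and 7.44 in scrambled ESCs, with a log2 change of 0.60 ± 0.27 (SE, limma adjusted p = 0.377). Kitl read 4.09 and 4.13 in KD1 and 4.19 and 4.39 in scrambled ESCs, all below the filter level. Endoderm markers also differed here: 6 of 17 were higher in KD1 ESCs, against the 2.32% of all tested genes that passed, among them Cubn (2.92), Srgn (2.77), Dab2 (2.05) and Gata6 (1.66). Srgn and Dab2 passed whichever of the 4 arrays compared was left out. Cubn passed under none of these 4 omissions (adjusted p 0.089 to 0.163). Gata6 lost its call under 3 of them, with a change down to 1.16 when ESC scrambled replicate 2 was left out, and with the replicate block (adjusted p = 0.0729).

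In KD2 against scrambled ESCs, 1 of the 6 genes passed, where 10.0% of all tested genes did. Pdgfc read 7.79 and 7.35 in KD2 and fell by 0.83 (± 0.22, SE, limma adjusted p = 0.0331). Leaving out the array labelled KD2 replicate 1, it fell by 1.05, and leaving out KD2 replicate 2 it was at -0.61. Each of these fits leaves a single KD2 array, so the spread between the KD2 arrays no longer enters the error. Kit read 10.35 on the array labelled KD2 replicate 1 and 9.25 on replicate 2, and its log2 change of 0.65 ± 0.41 did not pass (SE, limma adjusted p = 0.384). Leaving out the array labelled replicate 1 gave 0.10 and leaving out replicate 2 gave 1.20, and neither passed.

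Pdgfra read 5.64 and 6.50 in KD2, around the 2 scrambled values, for a log2 change of -0.09 ± 0.28. Leaving out the array labelled replicate 1 gave 0.34 (limma adjusted p = 0.314), and leaving out replicate 2 gave -0.53 (limma adjusted p = 0.126). Pdgfrb read 6.03 and 5.94, Pdgfa 8.30 and 8.53, and Kitl 3.81 and 4.27 in KD2, and none of these passed. Leaving out the array labelled replicate 1, their changes against scrambled ESCs were -0.19 for Pdgfrb, 0.66 for Pdgfa and -0.02 for Kitl. Leaving out replicate 2, they were -0.11 for Pdgfrb, 0.44 for Pdgfa and -0.48 for Kitl, and none of these 6 values passed.

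Set against each other, the knockdown lines differed in 1 of the 6 genes, where 2.70% of all tested genes passed. Pdgfc was 0.93 ± 0.22 higher in KD2 than in KD1 on the log2 scale (SE, limma adjusted p = 0.0472). Leaving out the array labelled KD2 replicate 1 gave 0.71 and leaving out replicate 2 gave 1.15. Pdgfra was -1.13 ± 0.28 in the same contrast (SE, limma adjusted p = 0.0542). It was at -0.70 without the array labelled replicate 1 and at -1.56 without replicate 2. Each of these fits leaves a single KD2 array, so the spread between the KD2 arrays no longer enters the error. For that reason only the sizes of these changes are given. Kit, Pdgfrb, Pdgfa and Kitl did not pass between KD2 and KD1, with both KD2 arrays or with either left out.

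The third question was how retinoic acid changes the genes in each line. In KD1 cells, 5 of the 6 genes passed between RA KD1 and ESC KD1, where 50.8% of all tested genes did. In scrambled cells, 5 of the 6 passed between RA scrambled and ESC scrambled, where 39.1% did. With so many genes changing, these counts say little about the 6 genes, and the directions below are the description.

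Kit changed with retinoic acid in scrambled cells and did not pass in KD1 cells. It averaged 10.44 in RA KD1 and 10.30 in ESC KD1, a log2 change of 0.14 ± 0.36 (SE, limma adjusted p = 0.761) that was smaller than its error. In scrambled cells it averaged 6.42 after retinoic acid and 9.15 before, and fell by 2.73 (± 0.41, SE, limma adjusted p = 0.000341), or 6.63-fold. The 4.02 between RA KD1 and RA scrambled cells thus goes with a low level in RA scrambled cells and a level in RA KD1 cells that overlaps that of KD1 ESCs.

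Pdgfra rose with retinoic acid in both lines. The log2 change was 3.82 ± 0.24 (SE, limma adjusted p = 3.07e-07) in KD1 and 2.39 ± 0.28 (SE, limma adjusted p = 5.19e-05) in scrambled cells. Both retinoic acid groups lay above every ESC array. Pdgfc also rose in both lines, by 1.75 ± 0.19 in KD1 (SE, limma adjusted p = 1.58e-05) and 1.67 ± 0.22 in scrambled cells (SE, limma adjusted p = 0.000118), and RA KD1 cells had about the level of scrambled ESCs, at a mean of 8.40 in each.

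Pdgfrb moved in opposite directions: it fell by 0.54 in KD1 cells (± 0.18, SE, limma adjusted p = 0.029) and rose by 0.82 ± 0.21 in scrambled cells (SE, limma adjusted p = 0.00949). The fall in KD1 cells was -0.20 with an adjusted p of 0.446 without ESC KD1 replicate 1, so it rests on that array. The rise in scrambled cells had an adjusted p of 0.0807 without RA scrambled replicate 2. Pdgfa fell by 0.90 in KD1 cells (± 0.23, SE, limma adjusted p = 0.00735, and 0.0917 without ESC KD1 replicate 1), and its -0.48 ± 0.27 in scrambled cells did not pass (SE, limma adjusted p = 0.182). Kitl rose by 0.43 ± 0.16 in KD1 cells (SE, limma adjusted p = 0.047), from ESC values below the filter level and with an adjusted p of 0.184 without ESC KD1 replicate 1. In scrambled cells it rose by 0.91 ± 0.19 (SE, limma adjusted p = 0.00261), also from ESC values below the filter level.

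**Figure D3:**
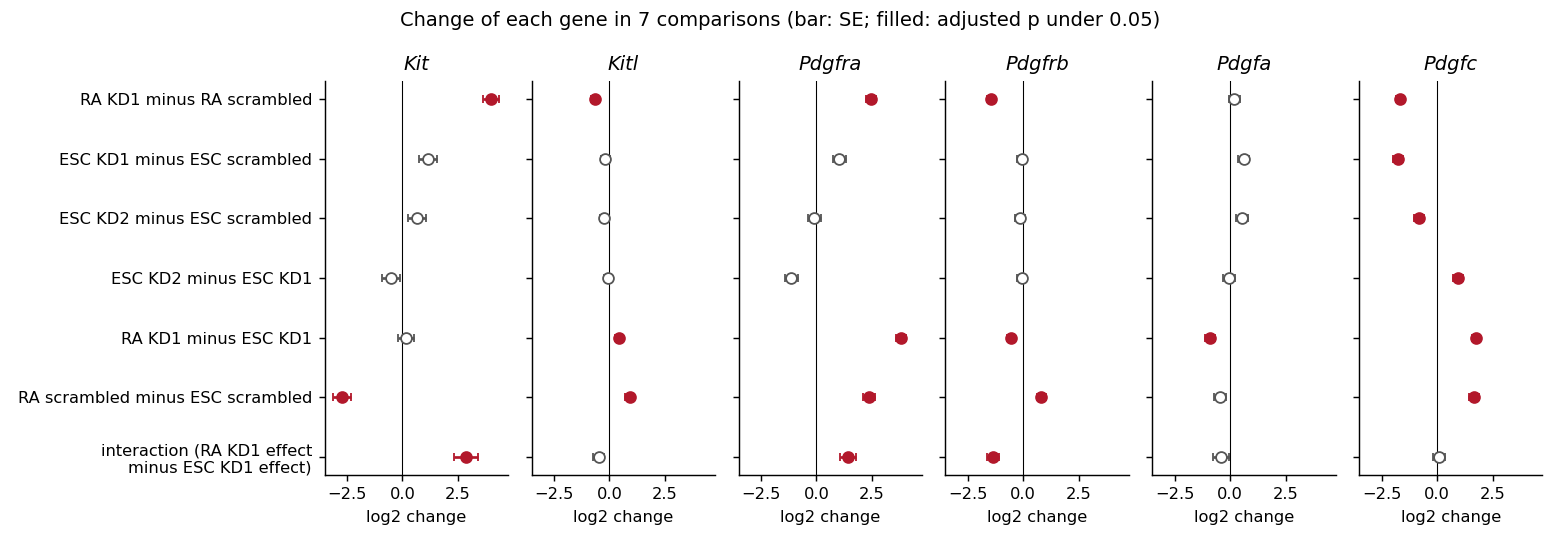
Log2 change of each of the 6 genes (first group minus second) in the 7 comparisons, with the SE as a bar and filled points for an adjusted p under 0.05. The interaction is the RA KD1 minus RA scrambled change minus the ESC KD1 minus ESC scrambled change, and Kit (2.87), Pdgfra (1.43) and Pdgfrb (-1.36) pass it.

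Whether the knockdown difference itself changes with retinoic acid was tested as an interaction in the same fit. In it 3 of the 6 genes passed, where 7.88% of all tested genes did. For Kit the difference between KD1 and scrambled cells was 4.02 after retinoic acid and 1.15 in ESCs, an interaction of 2.87 ± 0.55 (SE, limma adjusted p = 0.00861), and an adjusted p of 0.0559 without RA scrambled replicate 2. For Pdgfra it was 2.47 and 1.04, an interaction of 1.43 ± 0.37 (SE, limma adjusted p = 0.0343), and an adjusted p of 0.159 without RA scrambled replicate 1. For Pdgfrb it was -1.44 and -0.08, an interaction of -1.36 ± 0.28 (SE, limma adjusted p = 0.0124), and an adjusted p of 0.068 without RA scrambled replicate 2.

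The lower Pdgfc of KD1 cells was about as large after retinoic acid (-1.68) as in ESCs (-1.76), and the interaction of 0.08 ± 0.29 was smaller than its error (SE, limma adjusted p = 0.926). Kitl (-0.49 ± 0.25) and Pdgfa (-0.41 ± 0.36) did not pass either. The same 12 arrays enter these comparisons and several share a group, so they are not independent of each other.

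The order of the group means differed between the genes. Kit was highest in RA KD1 (10.44), then ESC KD1 (10.30), ESC KD2 (9.80) and ESC scrambled (9.15), each overlapping the next, with RA scrambled (6.42) apart below them. Pdgfra ran from RA KD1 (11.02) through RA scrambled (8.55), ESC KD1 (7.20) and ESC scrambled (6.16) to ESC KD2 (6.07), and only the last 2 overlapped. Pdgfrb was highest in RA scrambled (6.96) and lowest in RA KD1 (5.52), both apart from the 3 ESC groups, of which KD1 overlapped the other two. Pdgfc was highest in RA scrambled (10.07) and lowest in ESC KD1 (6.64), with RA KD1 and ESC scrambled overlapping at 8.40. Pdgfa was highest in ESC KD1 (8.46) and ESC KD2 (8.41) and lowest in RA scrambled (7.38), and Kitl was highest in RA scrambled (5.20) and lowest in ESC KD2 (4.04).

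Across the 12 arrays, Kit and Pdgfrb ran opposite to each other (Pearson's r = -0.88), while Kit and Pdgfra had little in common (r = 0.19). Kitl and Pdgfc ran together (r = 0.83). The genes whose values across the arrays were most like those of Kit were Atp1b1 (r = 0.988), Sdc4 (0.978) and Dennd2c (0.974), and for Pdgfra they were Stard8 (0.989), Golga3 (0.988) and Pag1 (0.985). For Pdgfrb they were Cttnbp2 (0.959), Tmem119 (0.956) and Cblb (0.947), for Pdgfc Zfhx4 (0.951), Senp6 (0.948) and Eps15l1 (0.945), for Pdgfa Lgals3 (0.925), Sytl1 (0.921) and Gramd1b (0.915), and for Kitl Hmgn2 (0.979), Smarce1 (0.975) and Gpsm1 (0.974). These r values are over 12 arrays in 5 groups that share their cultures' treatment, and are descriptions.

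Pdgfra and Kit are neighbours on chromosome 5 of GRCm38.p6, with 0 protein-coding genes between them and 376.8 kb from the end of Pdgfra to the start of Kit. The next gene beyond Kit is Kdr, the main VEGF receptor, 276.1 kb away. Of 11 further protein-coding genes around the pair, 7 were tested, and 1 passed in RA KD1 against RA scrambled cells, where 22.7% of all tested genes did. Chic2, which encodes a vesicle-associated protein, had a mean of 9.13 in RA KD1 and 8.44 in RA scrambled cells and a log2 change of 0.69 ± 0.16 (SE, limma adjusted p = 0.00797). Kdr had a mean of 5.19 in RA KD1 and 5.25 in RA scrambled cells, a change of -0.05 ± 0.21, far smaller than the changes of Pdgfra and Kit. Srd5a3 (0.62 ± 0.21, SE, limma adjusted p = 0.0542) and Tmem165 (0.42 ± 0.16, SE, limma adjusted p = 0.09) did not pass, though their groups were apart. The other tested neighbours ran from -0.21 (Fip1l1) to 0.32 (Scfd2). In KD1 against scrambled ESCs, Kdr was the 1 neighbour that passed, where 2.32% of all tested genes did. Its change was 1.08 ± 0.24 (SE, limma adjusted p = 0.0381), from scrambled ESC values of 4.07 to 4.38, below the filter level. That call was lost when any of the 4 arrays compared was left out (adjusted p 0.126 to 0.304) and with the replicate block (adjusted p = 0.101).

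**Figure D4:**
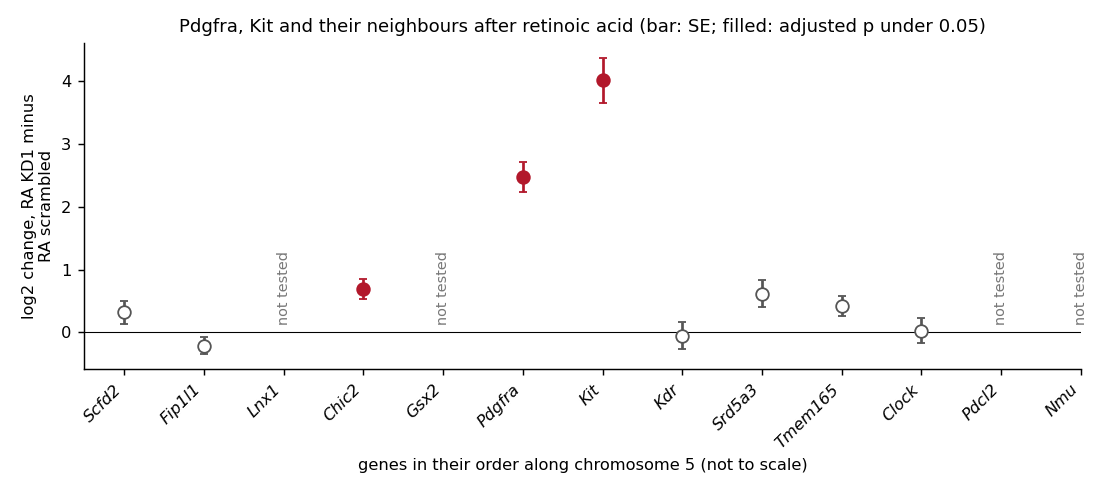
Log2 change in RA KD1 minus RA scrambled cells (y axis, SE as a bar) of Pdgfra, Kit and 11 protein-coding genes around them, in their order along chromosome 5 and not to scale. Filled points passed an adjusted p of 0.05: Kit (4.02), Pdgfra (2.47) and Chic2 (0.69).

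Other class III and related receptors and their ligands were read from a list of 9, of which 8 were tested. In RA KD1 against RA scrambled cells, 1 was higher and 1 lower, with a median of 0.01, where 22.7% of all tested genes passed. Flt1, a VEGF receptor, averaged 9.65 in RA KD1 and 5.68 in RA scrambled cells (log2 change 3.97 ± 0.32, SE, limma adjusted p = 6.4e-06), and its range of 9.38 to 9.98 in RA KD1 lay above every other array. Pdgfd, a PDGF that binds the beta receptor, averaged 4.88 in RA KD1 and 5.60 in RA scrambled cells (-0.72 ± 0.23, SE, limma adjusted p = 0.0403). Pdgfb, Csf1, Csf1r, Flt3, Flt3l and Kdr did not pass, with log2 changes from -0.43 (Csf1) to 0.13 (Csf1r). With retinoic acid, Csf1, the ligand of the Csf1 receptor, rose by 1.76 ± 0.22 in KD1 and 1.36 ± 0.26 in scrambled cells. Pdgfd rose by 1.42 ± 0.23 in KD1 and 1.93 ± 0.26 in scrambled cells. Its ESC values, 3.40 to 3.53 in KD1 and 3.41 to 3.93 in scrambled cells, lay below the filter level.

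Of 13 genes that process or hold PDGF and Kit ligands, 10 were tested, and in RA KD1 against RA scrambled cells 2 were higher and 1 lower (median 0.16). Over all tested genes 22.7% passed in that comparison. Plaur, the receptor of the urokinase that can cut PDGF precursors, changed by 3.05 ± 0.30, and Sparc, a matrix protein that binds PDGF and is also on the endoderm list, by 1.33 ± 0.20. Nrp1, a co-receptor, fell by 0.88. Plat, the protease that removes the CUB domain of PDGF-C, averaged 10.01 in RA KD1 and 9.85 in RA scrambled cells and did not pass there. It rose with retinoic acid, by 5.03 ± 0.24 in KD1 and 4.08 ± 0.28 in scrambled cells.

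Signal transducers below these receptors came from a list of 35, of which 28 were tested. In RA KD1 against RA scrambled cells 3 were higher and 2 lower, with a median of 0.12, where 22.7% of all tested genes passed. The PI3-kinase catalytic subunit Pik3cb (1.27), the adaptor Gab2 (0.57) and the transcription factor Stat5a (0.50) were higher, and the Src-family kinase Fyn (-1.07) and the PI3-kinase regulatory subunit Pik3r2 (-0.79) were lower. Of 14 tested genes that dampen receptor signals, 0 were higher and 4 lower (median -0.31), against the same 22.7% over all tested genes: the ubiquitin ligases Cblb (-1.09) and Cbl (-0.42), the adaptor Dok1 (-0.88) and Socs6 (-0.39), a binding partner of Kit. Of 12 early response genes, Ier3 (1.23) was higher and Ier2 (-0.88) and Myc (-0.83) were lower, with a median of -0.23, beside the same 22.7%.

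In KD1 against scrambled ESCs, 0 of the 28 transducers passed in limma (4 had an unadjusted p under 0.05), where 2.32% of all tested genes did. At that share the count says little about the transducers. Of the 14 dampers, Spry4, a feedback inhibitor, was higher by 2.20 ± 0.27 (SE, limma adjusted p = 0.00275), beside the same 2.32%. With retinoic acid, 21 transducers were higher and 1 lower in KD1 cells (median 0.77), against 15 and 1 in scrambled cells (median 0.54), where 50.8% of all tested genes passed in KD1 and 39.1% in scrambled cells. Akt1 was at 2.08 in KD1 and 2.18 in scrambled cells. Spry4 fell by 4.53 in KD1 cells, from a mean of 9.62 to 5.09. In scrambled cells it fell by 2.35, from 7.42 to 5.07, so the lines differed in the ESC level and ended alike.

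**Figure D5:**
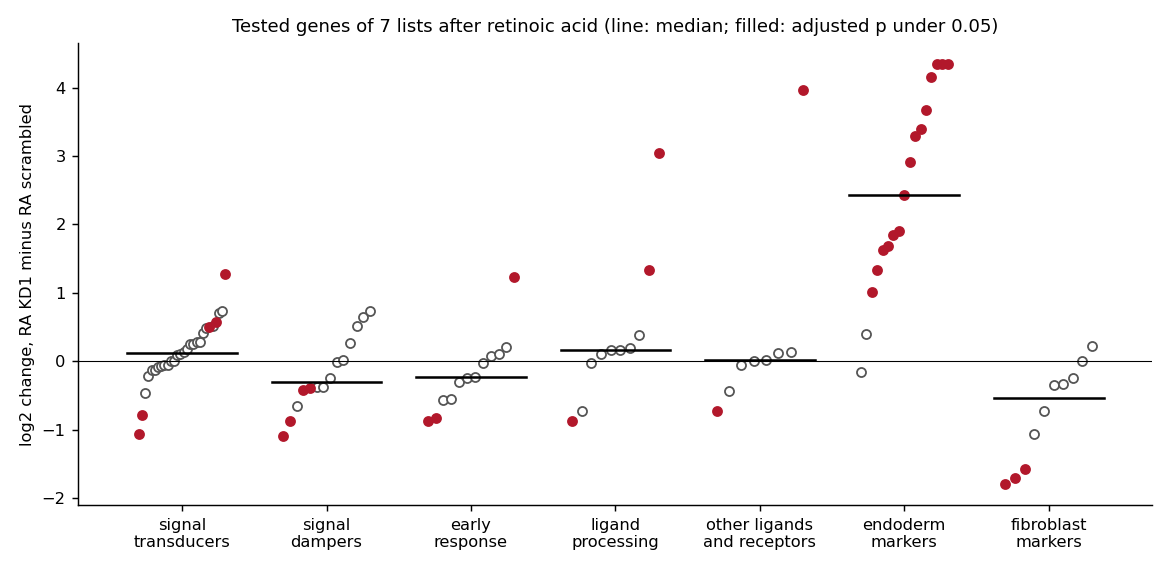
Log2 change in RA KD1 minus RA scrambled cells of the tested genes of 7 lists, 1 point per gene, with the median of a list as a line and filled points for an adjusted p under 0.05. The medians run from 2.43 for the endoderm markers to -0.54 for the fibroblast markers, with the transducers at 0.12; the pericyte list, at -0.60, is not plotted.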

How the data were processed

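Gene expression was measured on 12 arrays in 5 groups taken from the sample titles. The authors deposited 1 table of log2 values per probe set; per the submitters' processing notes they were made with RMA, whose version and settings these sources do not give. The values ran from 1.74 to 13.57, and the array medians from 4.73 to 5.09. Of 35556 probe sets, 21789 have 1 gene symbol in the platform annotation, 1621 have several and were not named, and 12146 are unlisted there. These gave 19938 genes. The members and gene lists were chosen with earlier results of these data known.

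The test was limma 3.58.1 in R 4.3.3 (lmFit and eBayes, group means, all 12 arrays, 7 residual degrees of freedom, two-sided, Benjamini-Hochberg over 12988 genes above the 40th percentile on at least 2 arrays). It was checked on simulated data. The 6 members are named in every comparison; of each list up to 4 called genes with the largest absolute change are named, and every neighbour, class III receptor or ligand may be. Stat5a, and Plat where it did not pass, were named after their values were seen. The 3 most alike genes by Pearson's r were named per member. Alternatives changed the filter, scaling, variance model, threshold, probe set summary, arrays and replicate block. The number of arrays limits the precision.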

Additional observations from a re-analysis of the deposited data

Results flagged for a closer look

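The difference between KD1 and scrambled cells was not the same after retinoic acid as in ESCs for 3 receptors, by the interaction term of the limma fit. The interaction was 2.87 for Kit (adjusted p = 0.00861), 1.43 for Pdgfra (adjusted p = 0.0343) and -1.36 for Pdgfrb (adjusted p = 0.0124), all on the log2 scale. For Pdgfc the knockdown lines differed from each other in ESCs, KD2 minus KD1, by 0.93 (adjusted p = 0.0472), and of the KD2 arrays, replicate 1 has a Smarcd1 value that opposes its label.

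Among the 4 RA KD1 arrays, a single array stood apart from the other three for 4 genes. Pdgfa had a lowest value of 7.23, with the others up to 7.73. Klf4, a pluripotency marker, had a lowest value of 8.15 (highest 8.70), and Pik3r1, a PI3-kinase subunit, a lowest of 7.72 (highest 8.05). Srd5a3, a neighbour of Kit, had a highest value of 7.51 (lowest 7.45). Of 90 genes examined, chance flags about 1 in 20 groups, which is of the order of the 4 seen.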

How the results depend on the processing

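For RA KD1 against RA scrambled cells, 4 or 5 of the 6 genes were called under every alternative, and Kit, Pdgfra, Pdgfrb and Pdgfc passed in all 24 of theirs, while Kitl passed in 19 of 23. Counts of called genes among the 6 moved by over 1.5 times as follows; the cause was not tested unless the alternative itself uses fewer arrays or a stricter threshold. KD1 against scrambled ESCs, 1 gene, gave 2 with cyclic loess, 3 with array weights, 2 with only the arrays compared, 2 with both KD2 arrays left out, and 0 to 2 when leaving out single arrays. KD2 against scrambled ESCs, 1 gene, gave 0 at an adjusted p of 0.01, at 2-fold, with cyclic loess, array weights, only the arrays compared, RA KD1 arrays 1 and 2 only or 3 and 4 only, and 0 to 1 when leaving out single arrays. KD2 against KD1, 1 gene, gave 0 under the same settings and with no filter or an intensity trend, 2 with a filter at the 60th percentile, and 0 to 2 when leaving out single arrays. RA scrambled against ESC scrambled, 5 genes, gave 3 at 2-fold. RA KD1 against ESC KD1, 5 genes, gave 3 at 0.01, 2 at 2-fold, 3 with RA KD1 arrays 1 and 2 only, and 2 to 5 when leaving out single arrays. The interaction, 3 genes, gave 1 at 0.01, 1 with RA KD1 arrays 1 and 2 only, and 1 to 3 when leaving out single arrays. In all, of 499 repeats of 21 called changes of the 6 genes, 427 passed again, 72 did not and 0 reversed; of 490 repeats of 21 changes not called, 11 passed and 12 had the other sign. Smarcd1 in KD2 against KD1 turned to -0.61 without the array labelled KD2 replicate 1 and was 0.80 without replicate 2.

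No label pairs same-numbered arrays across groups, and their deviations from the group means correlated at -0.18 to 0.24. In groups of 2 arrays the deviations mirror each other, so this does not settle whether same-numbered arrays share a batch. With the replicate block the counts were 0 for KD2 against scrambled ESCs, 0 for KD2 against KD1, 2 for RA KD1 against ESC KD1, 1 for the interaction, 4 for RA KD1 against RA scrambled cells, and as without it for the other two.

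Over all tested genes the calls ranged from 26 (without ESC KD1 replicate 1) to 1148 (array weights) around 301 for KD1 against scrambled ESCs, from 0 (only the arrays compared) to 4463 (without the array labelled KD2 replicate 1) around 1302 for KD2 against scrambled ESCs, and from 0 (array weights) to 4550 (without the array labelled KD2 replicate 1) around 351 for KD2 against KD1. They ranged from 1526 (without RA scrambled replicate 1) to 4988 (array weights) around 2942 for RA KD1 against RA scrambled cells, and from 447 (replicate block) to 2548 (array weights) around 1024 for the interaction. The ranges were 3341 to 7074 around 5079 for RA scrambled against ESC scrambled, and 4416 to 8611 around 6596 for RA KD1 against ESC KD1. Kitl is limited by signal: its ESC values lie below the filter level.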
